A study of Arabidopsis thaliana with 8 samples.

Results

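The genes described here are 10 photosystem II genes of the Arabidopsis chloroplast genome: psbA, psbB, psbC, psbD, psbE, psbF, psbH, psbK, psbN and psbT. They were chosen by gene symbol, as probe sets whose listed gene lies on the plastid chromosome (Pltd). Each of the 10 had exactly 1 probe set, out of 22746 probe sets tested and 69 plastid-encoded genes with exactly 1 listed gene. The other psb genes on the array (psbI, psbJ, psbL, psbM and psbZ) are not members and are given beside their neighbours.

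Transcripts were measured on 8 Affymetrix arrays with total RNA of whole wild-type Col-0 seedlings, 4 days old, grown in darkness at 21 °C on medium with 1% sucrose. The red lincomycin group grew on lincomycin and was collected after 30 min of red light. The dark lincomycin group grew on lincomycin and was collected in darkness. The red group and the dark group grew without lincomycin, and were collected after the same 30 min of red light and in darkness. Each group had 2 arrays. For the dose of lincomycin, the treatment protocol states 220 µg/ml and the source name 200 µg/ml. Lincomycin was present from plating, so the lincomycin seedlings had been exposed throughout growth. Nothing in the labels says whether the replicate arrays came from separate plantings, so each p-value measures only the spread between these arrays.

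Photosystem II is the thylakoid complex that oxidises water and passes electrons to plastoquinone. Its core is encoded in the chloroplast, while the oxygen-evolving proteins, several small subunits and most assembly factors are encoded in the nucleus. Most chloroplast photosynthesis genes are transcribed by a plastid-encoded RNA polymerase, whose core subunits are themselves made on plastid ribosomes, and many are read as multigene messages that are processed afterwards. Lincomycin blocks protein synthesis on plastid ribosomes, and in dark-grown seedlings the plastids are etioplasts without assembled photosystem II. The comparisons asked how lincomycin, and a short exposure to red light, changed the array signal of these transcripts in such seedlings.

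The arrays differed in quality. Replicate 1 of the dark group had a 41.2-fold ratio of the 3' to the 5' actin control, a sign of RNA degradation, against 2.24-fold to 3.67-fold on the other 7. Across probe sets, replicates correlated at r = 0.994 (red lincomycin), 0.995 (dark lincomycin), 0.979 (red) and 0.970 (dark). The plastid genes moved between replicates more than that: all 10 members were higher on replicate 1 than on replicate 2 of the dark lincomycin group, by 0.47 to 1.35 (log2), while the root mean square replicate difference over all probe sets there was 0.21. The same measure over the members was 0.27 for red lincomycin, 0.76 for dark lincomycin, 0.94 for red and 0.99 for dark arrays. For the tissue, few markers had a named probe set. PYK10, a root gene, stood at log2 intensities of 11.87 to 12.48, and EXPA7, an expansin of root hair cells, at 4.40 to 5.91. PORB, a protochlorophyllide oxidoreductase found in etioplasts, stood at 9.92 to 11.61. PYK10 and PORB were thus high on every array. No detection calls were made, and the low values of EXPA7 do not show that it was present. Of the listed markers, 2 of 4 root genes, 1 of 5 cotyledon genes and 0 of 4 seed genes had a named probe set.

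**Figure D1:**
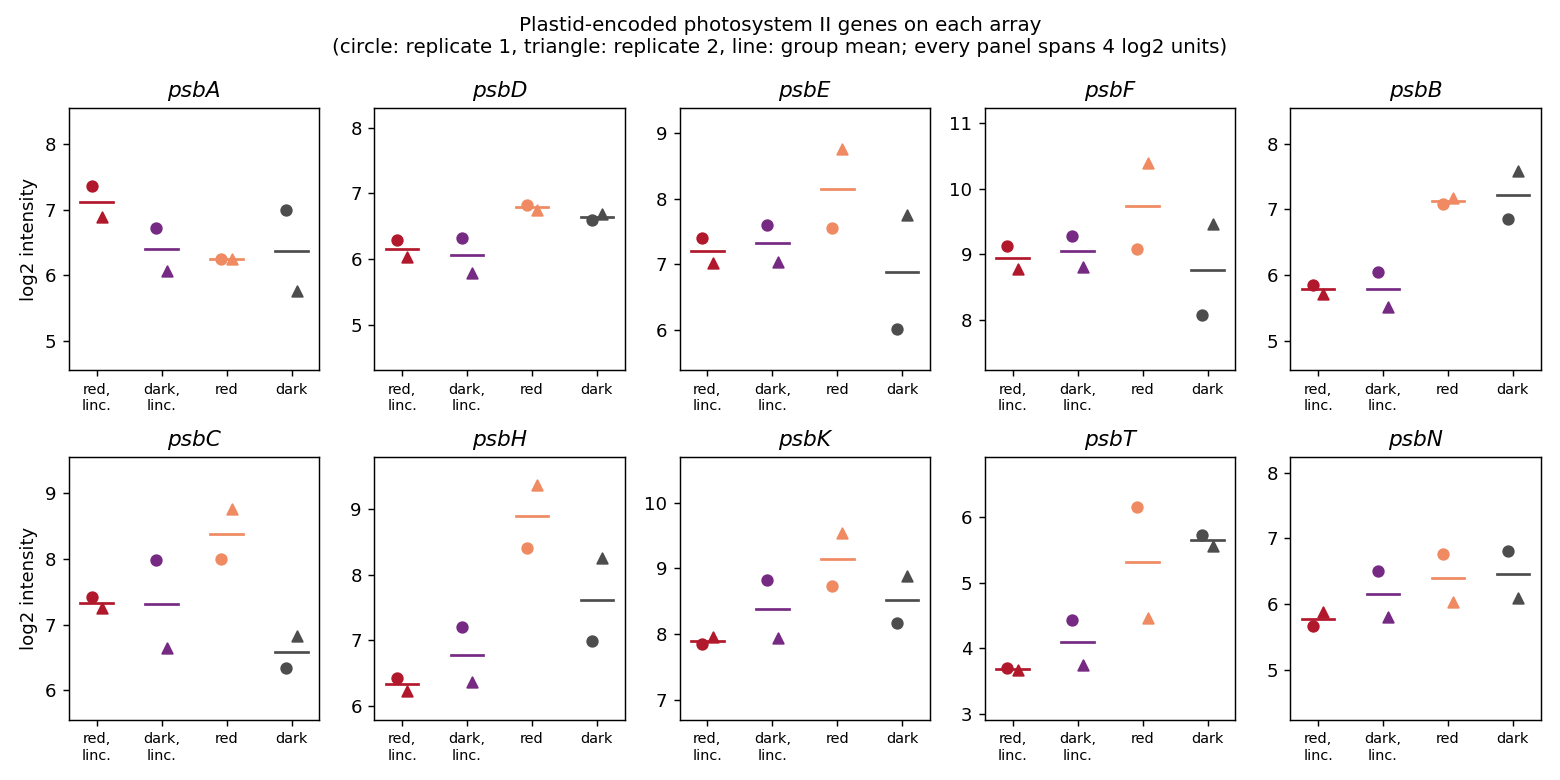
Log2 intensity (y axis) of each member on each array, by group (x axis); circles are replicate 1, triangles replicate 2 and lines group means, and each panel spans 4 log2 units. psbB, psbD and psbT were lower on all 4 lincomycin arrays than on any of the 4 arrays without it. For psbT the closest arrays were dark lincomycin replicate 1 (4.43) and red replicate 2 (4.47). psbA, psbC, psbE, psbF, psbH and psbT spread widely between replicates of some groups.

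Lincomycin lowered psbB, and the lowest changes among the plastid genes lay in its transcription unit. Averaged over darkness and red light, the 3 lowest log2 changes among the 69 plastid genes were those of psbH (-1.70), psbT (-1.59) and psbB (-1.39), which are read together in 1 transcription unit with petB and petD. psbB was the 1 member that passed the test, an adjusted p under 0.05 over all 22746 probe sets in limma. Lower calls made up 0.466% of all probe sets in that comparison. The median change of the members was -0.54, against 0.36 for the other 59 plastid-encoded genes and -0.01 for all probe sets, and 9 of the 10 members were below 0 (52.8% of all probe sets), 5 of them at an unadjusted p under 0.05 (9.12% of all probe sets). In whole seedlings, fewer plastids or cells of a type and less RNA in each cannot be told apart.

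psbB encodes CP47, an inner antenna protein that carries chlorophyll next to the reaction centre. Its log2 intensity was 5.85 and 5.71 on red lincomycin arrays and 6.05 and 5.52 on dark lincomycin arrays, against 7.08 and 7.17 on red arrays and 6.85 and 7.58 on dark arrays. Every lincomycin array lay below every array without it. Averaged over light, psbB fell by 1.39 ± 0.19 (SE of the limma fit, 4 arrays against 4), a 2.62-fold decrease with adjusted p = 0.0332. The change was -1.34 ± 0.27 after red light (adjusted p = 0.251) and -1.43 ± 0.27 in darkness (adjusted p = 0.0612), so neither light condition passed alone. With 1 array left out, the change in darkness ran from -1.80 (without dark replicate 1) to -1.07 (without dark replicate 2). It was -1.17 without dark lincomycin replicate 2. Without any 1 array the averaged change stayed between -1.57 and -1.20. Its call did not hold in most such fits, and the number of calls over all probe sets varied widely between them. The averaged call was also lost when low values were raised to a floor (adjusted p = 0.106) and when replicate number was added to the fit (adjusted p = 0.0592). The change itself stayed at -1.39 in both settings. As lower, 0.145% and 0.299% of all probe sets passed in them, against 0.466% as reported.

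psbT encodes a very small membrane subunit at the interface of the photosystem II dimer. It stood at 3.70 and 3.67 on red lincomycin arrays and 4.43 and 3.75 on dark lincomycin arrays, against 6.16 and 4.47 on red arrays and 5.73 and 5.56 on dark arrays. The lincomycin arrays again all lay below the others, the closest being the dark lincomycin replicate 1 and the red replicate 2. Its lincomycin values lie close to the 20th percentile of all intensities, at 3.51. The averaged change was -1.59 ± 0.35 with adjusted p = 0.0964, and it did not pass. With 1 array left out it ran from -2.01 (without red replicate 2) to -1.17 (without red replicate 1). After red light psbT was at -1.63 ± 0.50 (adjusted p = 0.415), -0.78 without red replicate 1 and -2.47 without red replicate 2. In darkness it was at -1.55 ± 0.50 (adjusted p = 0.165), and between -1.89 and -1.21 without any 1 array.

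psbH encodes a small phosphoprotein subunit next to CP47. Its values were 6.43 and 6.22 on red lincomycin arrays and 7.20 and 6.36 on dark lincomycin arrays, against 8.41 and 9.36 on red arrays and 6.98 and 8.26 on dark arrays. Only the dark replicate 1, the array with the high actin ratio, fell into the lincomycin range. The averaged change was -1.70 ± 0.35 (3.25-fold lower, adjusted p = 0.0814). After red light it was -2.56 ± 0.49, the largest of any member in any comparison, with adjusted p = 0.225, and in darkness -0.84 ± 0.49 (adjusted p = 0.431). With 1 array left out, the averaged change ran from -2.02 (without dark replicate 1) to -1.38 (without dark replicate 2). The change in darkness was -1.48 without dark replicate 1 and -0.20 without dark replicate 2.

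The distal genes of the same unit, petB and petD, encode cytochrome b6 and subunit IV of the cytochrome b6f complex. petD was at -0.82 ± 0.17 averaged over light (adjusted p = 0.0777), with all 4 lincomycin arrays below the others. petB was at -0.45 ± 0.40 (adjusted p = 0.627), with -1.43 after red light and 0.52 in darkness. The 5 genes of the unit therefore all had averaged changes below 0, of unequal size, and the differences between them were not tested.

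psbN lies between psbT and psbH on the opposite strand and is required for assembly of the complex rather than being a subunit of it. It stood at 5.66 and 5.88 on red lincomycin arrays and 6.51 and 5.81 on dark lincomycin arrays, against 6.77 and 6.03 on red arrays and 6.81 and 6.10 on dark arrays. The groups overlapped, and the averaged change of -0.46 ± 0.25 did not pass (adjusted p = 0.406, 95% interval -1.05 to 0.12). A probe for psbN detects the strand opposite to the unit around it.

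**Figure D2:**
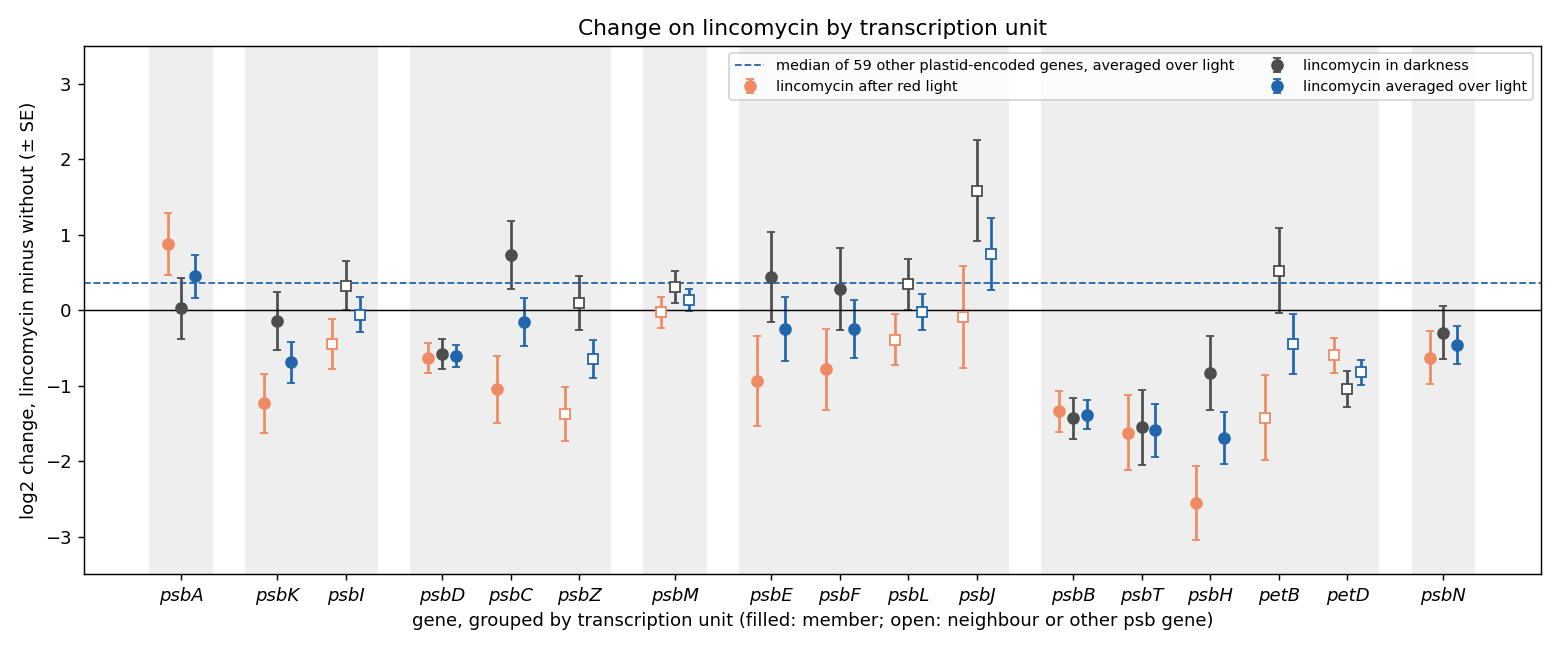
Log2 change on lincomycin (y axis, lincomycin minus without, ± SE of the limma fit) for the members (filled circles) and the other psb genes and neighbours (open squares), grouped by transcription unit (x axis), after red light, in darkness and averaged. The dashed line is the median averaged change of 59 other plastid-encoded genes, 0.36; psbB, psbT and psbH lie at -1.39 to -1.70.

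The reaction centre proteins are D1 and D2, encoded by psbA and psbD, which bind the pigments of charge separation. psbD stood at 6.29 and 6.03 on red lincomycin arrays and 6.33 and 5.79 on dark lincomycin arrays, against 6.83 and 6.76 on red arrays and 6.60 and 6.68 on dark arrays. All lincomycin arrays were below the others, and its averaged change was -0.61 ± 0.14 (adjusted p = 0.107), with -0.63 after red light and -0.58 in darkness. psbA was the 1 member above 0 in the averaged comparison. Its values were 7.36 and 6.89 on red lincomycin arrays and 6.73 and 6.07 on dark lincomycin arrays, against 6.24 and 6.26 on red arrays and 7.00 and 5.76 on dark arrays. Both red lincomycin arrays lay above both red arrays, whereas the dark groups overlapped, and the averaged change was 0.45 ± 0.29 (adjusted p = 0.492). A change of psbA of between -0.23 and 1.13 is inside the 95% interval.

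Counting arrays that do not overlap, 3 of the 10 members (psbB, psbD and psbT) were lower on all 4 lincomycin arrays, against 3.99% of all probe sets, and 0 members were higher on all 4 (4.35% of all probe sets). Of the other 59 plastid genes, 3 were lower on all 4 arrays and 6 were higher.

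psbC encodes CP43, the second inner antenna protein, and its reading frame follows that of psbD in the same unit. It stood at 7.42 and 7.25 on red lincomycin arrays and 7.99 and 6.64 on dark lincomycin arrays, against 8.01 and 8.76 on red arrays and 6.34 and 6.83 on dark arrays. The direction differed with light: both red lincomycin arrays were below both red arrays (-1.05 ± 0.45, adjusted p = 0.600), and in darkness the groups overlapped (0.73 ± 0.45, adjusted p = 0.454). psbC and psbD, although cotranscribed, correlated at only r = 0.40 over the 8 arrays, a description across arrays that share the design. psbZ, the third gene of that unit and an accessory subunit, was at -1.38 after red light and 0.09 in darkness. Beyond psbZ lie rps14, for a ribosomal protein, at -0.68 ± 0.13 averaged over light (adjusted p = 0.0660, all lincomycin arrays lower), and the photosystem I genes psaB at 0.37 ± 0.33 (adjusted p = 0.640) and psaA at -0.76 ± 0.31 (adjusted p = 0.284).

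psbE and psbF encode the subunits of cytochrome b559, a haem protein of the core. psbE stood at 7.40 and 7.01 on red lincomycin arrays and 7.60 and 7.04 on dark lincomycin arrays, against 7.55 and 8.75 on red arrays and 6.02 and 7.74 on dark arrays. psbF stood at 9.12 and 8.77 on red lincomycin arrays and 9.28 and 8.81 on dark lincomycin arrays, against 9.07 and 10.39 on red arrays and 8.07 and 9.46 on dark arrays. The lincomycin arrays of both genes fell inside the range of the arrays without it. The genes followed each other closely, at r = 0.99 over the 8 arrays. Their averaged changes were -0.25 ± 0.42 and -0.25 ± 0.38, with adjusted p = 0.819 and 0.796, and their 95% intervals ran from -1.24 to 0.74 for psbE and from -1.15 to 0.65 for psbF. The remaining genes of that unit, psbL and psbJ, which encode further small subunits, were at -0.02 and 0.74.

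psbK encodes a small subunit that sits by CP43. It stood at 7.85 and 7.95 on red lincomycin arrays and 8.82 and 7.94 on dark lincomycin arrays, against 8.73 and 9.54 on red arrays and 8.17 and 8.88 on dark arrays. The red groups were apart and the dark groups were not, and the averaged change was -0.69 ± 0.28 (adjusted p = 0.271). Its partner in the same unit, psbI, was at -0.06 ± 0.23. psbM, read apart from these units, was at 0.14 ± 0.15.

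By light condition, lincomycin gave 8 members that were lower on both arrays after red light and 1, psbA, that was higher, where 20.5% of all probe sets were lower and 19.4% higher in this way. In darkness 3 members were lower, psbB, psbD and psbT, against 25.6% of all probe sets. In limma 0 members passed after red light and 0 in darkness, with 6 and 3 members lower at an unadjusted p under 0.05, against 3.84% and 10.5% of all probe sets. At adjusted p under 0.05, 0.0264% of all probe sets passed after red light and 0.980% in darkness. The median change of the members was -0.996 after red light and -0.22 in darkness. Without replicate 2 of the dark lincomycin group the dark median was 0.17, and without replicate 1 of it -0.62.

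Most other plastid genes did not lie below 0, but low changes were not particular to photosystem II genes. Next after psbH, psbT and psbB came ndhG (-0.92), petL (-0.84), petD (-0.82), ndhE (-0.79), ndhF (-0.78), psaA (-0.76) and petN (-0.70). All of these were lower than psbK (-0.69), the next member. The highest changes were those of rps2 (2.35), ndhD (1.76) and rpoC1 (1.58). Of the other 59 plastid genes, 38 were above 0 on lincomycin averaged over light (10738 of all 22746 probe sets). By limma 2 were called higher and 0 lower (98 and 106 of all probe sets). At an unadjusted p under 0.05, 20 were higher and 13 lower (1739 and 2074 of all probe sets). Relative to the median of those 59 genes on the same array, psbB was lower on all 4 lincomycin arrays (-1.08 to -0.59, against 0.25 to 1.42 without lincomycin, centred on its own 8-array mean), as were psbH (-1.38 to -0.67, against 0.17 to 1.51), psbD and psbK. psbT overlapped by 1 array on this scale. The share of all probe sets that were lower on all 4 lincomycin arrays was not counted on this scale. A limma fit of all probe sets scaled to that median, chosen after the data were seen, gave averaged changes of -2.11 for psbH (adjusted p = 2.94e-05), -1.998 for psbT (adjusted p = 0.000118) and -1.80 for psbB (adjusted p = 0.00134). This scaling moved the median change of all probe sets to -0.42, so relative to the bulk of the probe sets the changes were as given before, and 0.466% of all probe sets passed as lower in it.

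**Figure D3:**
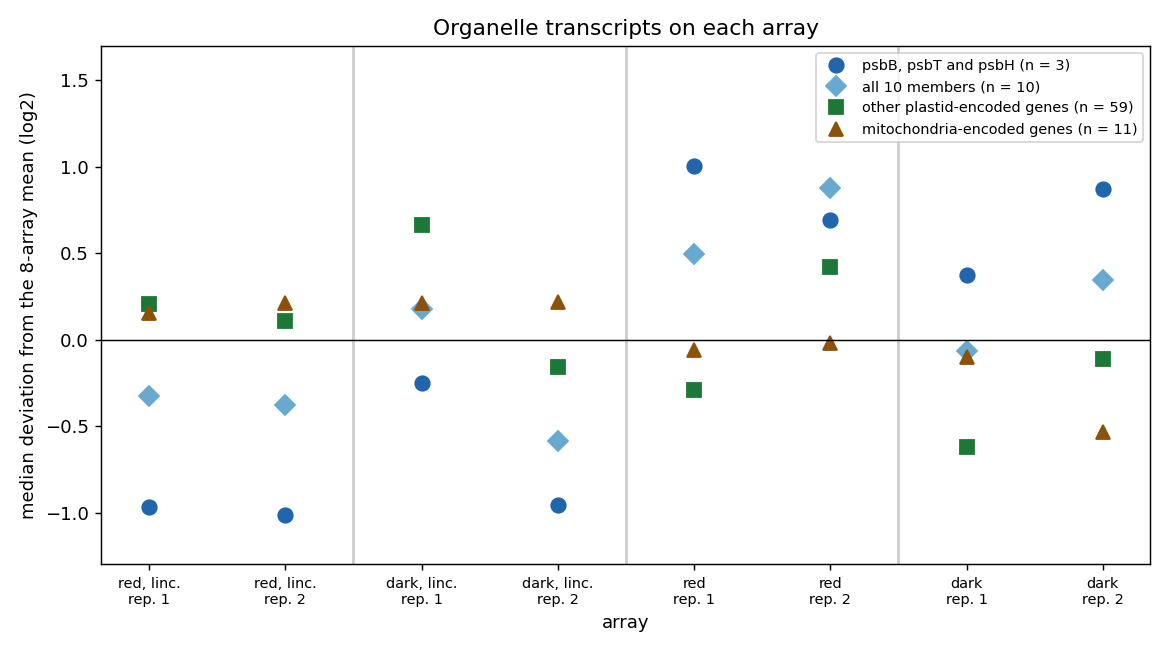
Median deviation from the 8-array mean (y axis, log2) on each array (x axis) of psbB, psbT and psbH, of all 10 members, of 59 other plastid-encoded genes and of 11 mitochondria-encoded genes. The median of psbB, psbT and psbH sits at -1.01 to -0.25 on the lincomycin arrays and at 0.37 to 1.01 on the others. These 3 genes had the lowest averaged lincomycin changes of the 69 plastid genes, so this split is not a separate result. petB and petD of the same unit are counted among the other plastid-encoded genes, whose median follows no such split.

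On the dark replicate 1, the other plastid genes stood at -0.62 (median deviation from the 8-array mean), against -0.11 on replicate 2, and the members at -0.07 and 0.34. The mitochondrial genes stood between 0.16 and 0.22 on the lincomycin arrays and between -0.53 and -0.02 on the others. PORB, the only listed cotyledon gene with a named probe set, fell on lincomycin by 0.95 ± 0.12 averaged over light (adjusted p = 0.0262). The parts of the RNA quality of that array and of a change in etioplast content in the psbB result were not tested. Without the dark replicate 1 and the red replicate 1 together, a selection made after the data were seen, 6 members passed as lower on lincomycin averaged over light, and psbB was at -1.59 with adjusted p = 0.00394. In that fit 7.63% of all probe sets passed as lower, against 0.466% with all arrays.

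Red light did not change any member past the test on either medium. On lincomycin, the members had a median change of -0.11, from -0.48 for psbK to 0.73 for psbA, with 0 called by limma and 0 at an unadjusted p under 0.05 (0.0615% and 3.85% of all probe sets). psbA was higher on both red lincomycin arrays than on both dark lincomycin arrays and psbT was lower, where 21.7% and 22.9% of all probe sets did so. Without lincomycin the members had a median of 0.38, with 0 called (0.189% of all probe sets) and 2, psbC and psbH, higher at an unadjusted p under 0.05 (5.44% of all probe sets). The other plastid genes had a median of 0.44 in that comparison.

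psbH was at 1.26 ± 0.49 after red light without lincomycin (adjusted p = 0.308), and psbC at 1.80 ± 0.45 (adjusted p = 0.160), both with no overlap between the red and dark arrays. With psbD these were 3 members higher on both red arrays, against 16.9% of all probe sets. psbE was at 1.27 ± 0.60 and psbF at 0.97 ± 0.54, each with 1 dark array inside the range of the red arrays. Of the dark arrays behind these values, replicate 1 was the lower for 7 members, psbC, psbE, psbF and psbH among them. Without that array, the one with the high actin ratio, the change was 0.41 for psbE, 0.27 for psbF, 0.63 for psbH and 1.55 for psbC. Without red replicate 2 it was 0.67 for psbE, 0.31 for psbF, 0.79 for psbH and 1.42 for psbC. Without the dark and red replicates 1 together, a selection made after the data were seen, the changes did not shrink in this way. They were 1.01 for psbE, 0.94 for psbF, 1.10 for psbH and 1.93 for psbC. Replicate differences of the red and dark groups correlated at 0.44, so leaving out 1 array of either group unbalances them. psbB (-0.09 ± 0.27) and psbD (0.15 ± 0.20) had 95% intervals of -0.73 to 0.55 and -0.32 to 0.63. On lincomycin the same intervals were -0.64 to 0.64 for psbB and -0.37 to 0.58 for psbD.

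**Figure D4:**
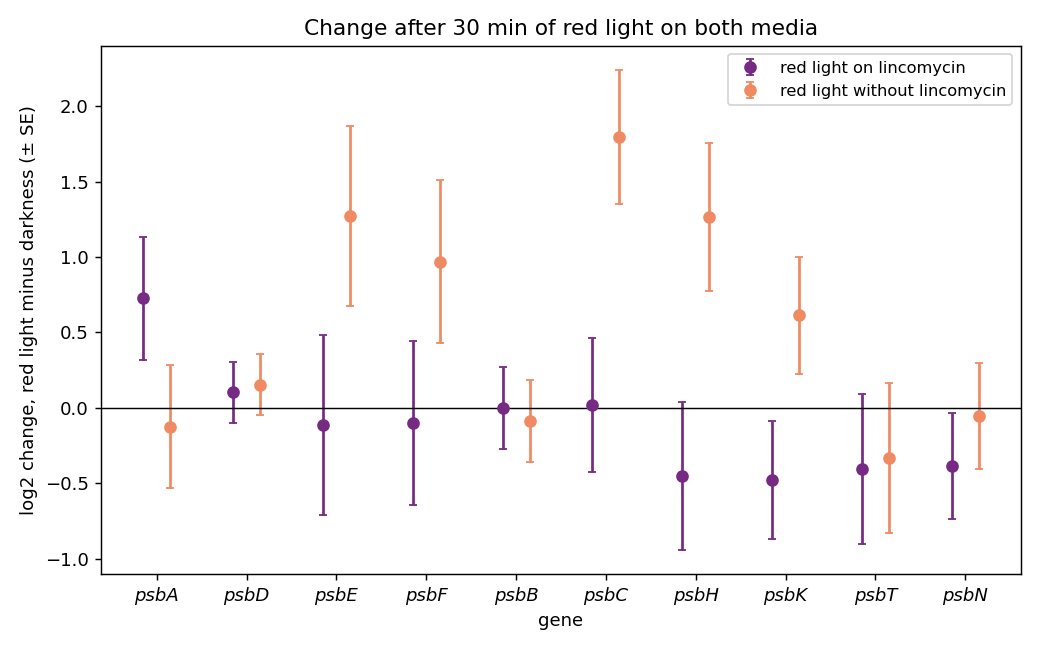
Log2 change after 30 min of red light (y axis, red minus darkness, ± SE of the limma fit) of each member (x axis), on lincomycin and without it. psbC, psbE, psbF and psbH lie at 0.97 to 1.80 without lincomycin and at -0.45 to 0.02 on it, and none passed the test. Without dark replicate 1 those 4 changes without lincomycin were 0.27 to 1.55. They were 0.94 to 1.93 without the dark and red replicates 1 together.

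The interaction, the change after red light on lincomycin minus that without it, had 0 calls among the members and 0 among all probe sets (0%) in limma, with 2 members, psbC and psbH, below 0 at an unadjusted p under 0.05 (3.87% of all probe sets). psbC was at -1.78 ± 0.63 (adjusted p = 0.413) and psbH at -1.72 ± 0.69 (adjusted p = 0.465). For psbB it was 0.09 ± 0.38 and for psbT -0.07 ± 0.70, with 95% intervals of -0.81 to 0.99 and -1.73 to 1.58. Averaged over media, red light gave 0 member calls in limma (0.299% of all probe sets), 1 member, psbC, higher at an unadjusted p under 0.05 (0.91 ± 0.31, adjusted p = 0.530; 3.40% of all probe sets) and a median of 0.21. The light comparisons and the lincomycin comparisons share arrays, so their values are not independent of each other.

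Among themselves, the members did not form 1 pattern over the 8 arrays. psbB correlated best with psbD (r = 0.92), psbH with psbK (r = 0.94), psbT with psbN (r = 0.83) and psbE with psbF. psbA correlated with no member above r = -0.04. Within the psbB unit, psbB correlated with psbH at r = 0.85 and with psbT at r = 0.82, and psbT with psbH at r = 0.57. To the mean of the 10 members, the likest other plastid genes were petL (r = 0.92), a small subunit of the cytochrome b6f complex, ndhE (0.89), psaA (0.86), psbZ and rpl33 (both 0.80). The likest nuclear genes were AT3G55640 (r = 0.94), BGLU29 (0.91), AT4G37560 (0.90), THIC (0.89), which acts in thiamine synthesis, and AT5G16030 (0.89). These are descriptions over 8 arrays that share the design and the same libraries.

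The nuclear partners of the complex were scarcely measured by name: 4 of 16 listed photosystem II subunits and 4 of 22 assembly and repair factors had a named probe set, and 0 of 6 sigma factors and 0 of 12 polymerase-associated proteins did. Of the 4 nuclear subunits, all were below 0 on lincomycin averaged over light (52.8% of all probe sets), with a median of -0.49. As lower, 1 passed (0.466% of all probe sets). This was AT1G51400, a small photosystem II protein, which fell by 1.20 ± 0.17 (adjusted p = 0.0352). PSBW, a small subunit that stabilises photosystem II supercomplexes, was at -0.72 ± 0.17 (adjusted p = 0.103), also with all lincomycin arrays lower. Of the 4 assembly factors 0 passed in limma (204 of all 22746 probe sets), and 1 was higher at an unadjusted p under 0.05 (1739 of all probe sets). PAM68, an early assembly factor, was at 0.71 ± 0.14 (adjusted p = 0.0731) and RBD1, a membrane rubredoxin, at -0.33 ± 0.17 (adjusted p = 0.389). After red light averaged over media 0 of these 8 passed in limma (0.299% of all probe sets), and 2 were higher at an unadjusted p under 0.05 (3.40% of all probe sets). The lowest p were those of PSBY (0.49 ± 0.11, adjusted p = 0.272) and PSB27 (0.33 ± 0.13, adjusted p = 0.600).

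The 4 genes for core subunits of the plastid-encoded RNA polymerase had a median change of 1.13, and 1 passed in the direction opposite to psbB. As higher, 98 of all 22746 probe sets passed. The gene was rpoA, which lies next to petD on the chromosome and rose by 1.03 ± 0.16 on lincomycin averaged over light (adjusted p = 0.0461). rpoA stood at 11.43 and 11.33 on red lincomycin arrays and 11.55 and 11.10 on dark lincomycin arrays, against 10.30 and 10.82 on red arrays and 10.23 and 9.96 on dark arrays. rpoC1 was at 1.58 ± 0.33 (adjusted p = 0.0862), also with no overlap between the arrays. rpoB was at -0.14 ± 0.13 (adjusted p = 0.663), and RPOTMP, a nuclear phage-type polymerase, at -0.09 ± 0.10 (adjusted p = 0.719).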

How the data were processed

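Whole-seedling total RNA was biotin-labelled by the Affymetrix protocol, per the labels. The primer used, array batches and software version are not given in the sources used here. How fully the RNA of plastid genes was labelled is therefore not known, and a change in array signal may differ from a change in transcript level. Each deposited value is an intensity of a probe set on an array, made with RMA per the submitters' processing notes. The values are linear, so log2 was taken. Of 22810 probe sets, 64 controls were left out. Genes came from the supplied platform annotation: 13513 probe sets had exactly 1 gene, 503 several and 8730 none. Symbols and neighbours came from RefSeq (TAIR10.1), whose coordinates are not printed, since the array files name no build.

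Group means over all 8 arrays were fitted with limma 3.58.1 (lmFit, eBayes) in R 4.3.3. The fit had 4 residual degrees of freedom and a prior worth 3.19 more. The tests were two-sided, with Benjamini-Hochberg adjustment over 22746 probe sets in each of 7 comparisons, and the procedure was tested on simulated data. The number of arrays limits the precision. No low-value filter was applied, and all 10 members were tested. Intervals are 95% intervals of the fit. Figures used Python 3.11.15 and matplotlib 3.10.9.

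All members were named, with neighbours in their units, up to 2 list genes by lowest p in each averaged comparison, every called list gene, and the 5 likest genes of each genome. The members and lists were chosen with earlier results of these data known. Alternatives were other scalings, a dim filter, a floor, other eBayes settings, a replicate block, fewer arrays and leaving out each array.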

Additional observations from a re-analysis of the deposited data

Results flagged for a closer look

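PSBY, a nuclear photosystem II subunit, was lower on both lincomycin arrays than on both others after red light and higher on both in darkness, and the lincomycin change after red light minus that in darkness was -1.06 ± 0.23 (limma adjusted p = 0.336). EXPA7, the root hair marker, was at -1.58 ± 0.35 for the light change on lincomycin minus that without it (adjusted p = 0.336), both red arrays being lower than both dark arrays on lincomycin and higher than both without it. LPA2, a photosystem II assembly factor, was at 0.28 ± 0.18 for the same difference (adjusted p = 0.663), higher on both red arrays on lincomycin and lower on both without it. None of these differences passed the test, and all 3 genes were picked out because every array moved in opposite directions in the 2 conditions. None of the 10 plastid-encoded members did so, and the share of all probe sets that did was not counted. Some of these gaps were very small. LPA2 without lincomycin stood at 7.575 on red replicate 1 and 7.578 on dark replicate 1. EXPA7 stood at 5.372 on red lincomycin replicate 1 and 5.382 on dark lincomycin replicate 1.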

How the results depend on the processing

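Lincomycin averaged over light called 1 member. It called 0 with low values raised to the 20th percentile, 0 with the replicate block (psbB adjusted p = 0.0592), and 0 to 2 without each array in turn. It called 3 when arrays were scaled to the other plastid genes and 6 without the dark and red replicates 1, where 0.510% and 11.7% of all probe sets passed, against 0.897% as reported. The last 2 settings were added after the data were seen. Lincomycin in darkness called 0 members (0.980% of all probe sets), against 1 with arrays shifted to a common median (1.5%), 1 when scaled to the other plastid genes (0.290%), 3 without both replicates 1 (16.5%) and 0 to 1 without each array. Lincomycin after red light called 0 (0.0264%), against 1 when scaled to the other plastid genes (0.0659%) and 1 without both replicates 1 (0.396%). The median change of the members was -0.54 for lincomycin averaged over light, against -0.94 when scaled to the other plastid genes and -0.96 without both replicates 1. In darkness it was -0.22, against -0.82 so scaled, and -0.62 to 0.17 without each array. After red light it was -0.996, against -1.41 without both replicates 1 and -1.41 to -0.75 without each array. For red light without lincomycin it was 0.38, against -0.11 when scaled to the other plastid genes, and for red light on lincomycin -0.11, against -0.52 to 0.15 without each array. The cause was not tested.

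Replicate numbers did not pair the arrays throughout. The correlation of replicate differences was 0.44 between the red and dark groups, and ran from -0.33 to 0.13 between the other pairs of groups. The replicate block ended the psbB call and changed no other member call. Of 1160 single-gene values under the alternatives, 7 lost a call, 21 gained one and 0 called values changed sign, while 70 uncalled values did. Averaging probe sets per gene was not run, since each member had 1. With an array left out, its lone partner was taken to have the spread of the other groups. Over all probe sets, lincomycin averaged over light gave 204 calls, 73 with the floor, 119 with the replicate block, 1 to 1106 without each array, and 2657 without both replicates 1. Of the 204, 48.0% were higher, and of the 246 with arrays shifted to a common median, 58.9%, and of the 116 when scaled to the other plastid genes, 8.62%.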
